A study of Drosophila melanogaster with 12 samples.

Results

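The abdomens of *loj* females were compared with those of control females on 6 Affymetrix Drosophila Genome 2.0 arrays, 3 per group, out of 12 arrays in the study. All 18769 probe sets that are not array controls were taken, and they represent 12026 named genes. The *loj* females carried the alleles *loj* 00898/*loj* 04026. Each control sample pooled 6 *loj* 00898/+ and 6 *loj* 04026/+ females, so the controls also lacked 1 functional copy of *loj*. All females were collected as virgins and kept at a constant temperature, each was mated to 1 wild-type male at day 4, and 12 abdomens per sample were taken 3 h after mating. The abdomen preparation held the ovaries, the genital tract, fat body and gut, and the remaining 6 arrays hold the head/thorax of females treated alike. Each sample was a separate RNA extraction, and no source used here says which *loj* and control samples were collected side by side. The study describes the combination of alleles as strongly hypomorphic and probably null. Probe set intensities are on a linear scale. Up or down regulated means that limma, a linear model that shares variance information among probe sets, gave an adjusted p under 0.05 (Benjamini-Hochberg) with at least 1.5-fold between the groups.

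Logjam belongs to the p24 proteins, small transmembrane proteins of the vesicles that carry cargo between the endoplasmic reticulum (ER) and the Golgi. The female abdomen contains several strongly secretory tissues. Follicle cells of the ovary secrete the vitelline membrane and chorion of the eggshell, the fat body secretes yolk and blood proteins, and the midgut secretes digestive enzymes. In mated females octopamine acts on the ovary and oviduct to release eggs.

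The background level of an array was set from its 27 bacterial control probe sets, whose 95th percentile ranged from 91.2 to 131 over the control abdomens and from 76.8 to 108 over the *loj* abdomens. An intensity over that level is called above background. Between 46.2% and 54.5% of the probe sets of an array were above it. The 18S rRNA control set read 137, 83.2 and 639 on the control arrays and 90.3, 162 and 191 on the *loj* arrays, so that control replicate 3 stood above the other 5 arrays (exact two-sided permutation test of the groups, p = 0.9). The log2 ratio of the 3' to the 5' *Act5C* control set, a measure of RNA integrity, was 0.76, 0.79 and 0.91 on the control arrays and 0.72, 0.67 and 0.68 on the *loj* arrays, with every *loj* array below every control array (exact p = 0.1, the smallest that 3 against 3 allow). Of the follicle cell, germline and midgut markers, 5 of 5, 3 of 3 and 6 of 6 were above background on all 6 arrays, as were 4 of 6 fat body markers, whereas none of 10 markers of male seminal fluid and sperm, 3 of photoreceptors and 4 of neurons was. The follicle cell markers summed to 25403 to 35196 in the controls and to 18703 to 24209.9 in *loj* mutants, without overlap. Summed germline markers overlapped between the groups (10933 to 13814 and 9555 to 11261), and so did the midgut and fat body sums. Sums of Malpighian tubule markers (4483 to 4799 and 5247 to 5849), of spermatheca markers (4463 to 5425 and 6033 to 6483) and of hemocyte markers (1969.5 to 2641 and 2847 to 3102) were higher in *loj* mutants without overlap. The spermatheca sum rests on 2 markers. Of the 8 hemocyte markers 4 were above background on all 6 arrays, and none was called. The median log2 change of these 4 from the control mean overlapped between the groups (-0.23 to 0.18 in the controls and 0.018 to 0.28 in *loj* mutants). The tubule sum rose through *Uro*, the urate oxidase gene, which is in the study's tables of immune-regulated genes and read 639 to 837 in the controls and 2022 to 2366 in *loj* mutants. Without *Uro* the other 7 tubule markers summed to 3844 to 4105 in the controls and 3162 to 3483 in *loj* mutants, lower without overlap. In whole abdomens fewer cells of a type and less RNA per cell cannot be told apart.

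The *loj* probe set read 1065, 921 and 1087 in the controls and 43.2, 37.5 and 38.1 in *loj* mutants, not above background on any *loj* array and at least 11.8-fold below the controls (log2 change -4.69 ± 0.10 (SE), limma adjusted p = 1.84e-04). The targeted transcript thus followed the labels of all 6 samples.

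In *loj* abdomens 164 of the 18769 probe sets were called (0.874%), 116 up regulated (0.618%) and 48 down regulated (0.256%), while 2602 had an unadjusted p under 0.05. The 3 *loj* arrays lay wholly outside the 3 control arrays for all 164, as they did above the controls for 8.83% and below them for 10.5% of all probe sets. Of the 116 up regulated probe sets, 26 belong to an immune list or to the immune-regulated genes of the study, and of the 48 down regulated none does. The other 138 are described here. They include 4 that carry several gene names and 18 that carry none. In 23 of the 164 (14 up and 9 down regulated) the brighter group itself was not above background on all 3 arrays, and these are named only with that remark. With 1 array fewer the number of calls fell each time, for control replicates 1, 2 and 3 left out in turn to 15, 29 and 13 up and 9, 23 and 9 down regulated, and for *loj* replicates 1, 2 and 3 to 26, 14 and 14 up and 15, 13 and 12 down regulated. The probe sets called in all 6 of these fits were 15, among them *loj*, *CG8768*, *UGP*, *GstE1* and *Naglu* of the down regulated and *CG5568*, *CG13321*, *CG33468* and *E(spl)m5-HLH* of the up regulated genes.

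Probe sets were divided by where the transcript is found in control females. Those whose control abdomen mean was at least 4 times the control head/thorax mean are called mainly abdomen (1308 probe sets), those with the reverse ratio mainly head/thorax (2638), and the rest neither (14823). Mainly abdomen probe sets made up 16 of the calls, 9 up and 7 down regulated, which is 1.22% of the class against 0.874% of all. Of the mainly head/thorax probe sets 45 were called, 36 up and 9 down regulated (1.71%), and of the rest 103 were called, 71 up and 32 down regulated (0.695%). Among probe sets above background on all 3 arrays of a group, the shares called were 1.36% of 1102 mainly abdomen, 4.3% of 744 mainly head/thorax and 1.29% of 7274 others. Of all 9120 such probe sets 1.55% were called, so by this count the mainly abdomen share was below that of all. The median log2 change was -0.069 for mainly abdomen, 0.093 for mainly head/thorax and -0.032 for all probe sets. The class and the test share the control abdomen arrays, so an error in those arrays enters both. With the class taken from the *loj* arrays instead, 10 up and 3 down regulated probe sets were mainly abdomen, and with any 1 of the 6 arrays left out 1 to 3 up and 1 to 2 down regulated.

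**Figure D1:**
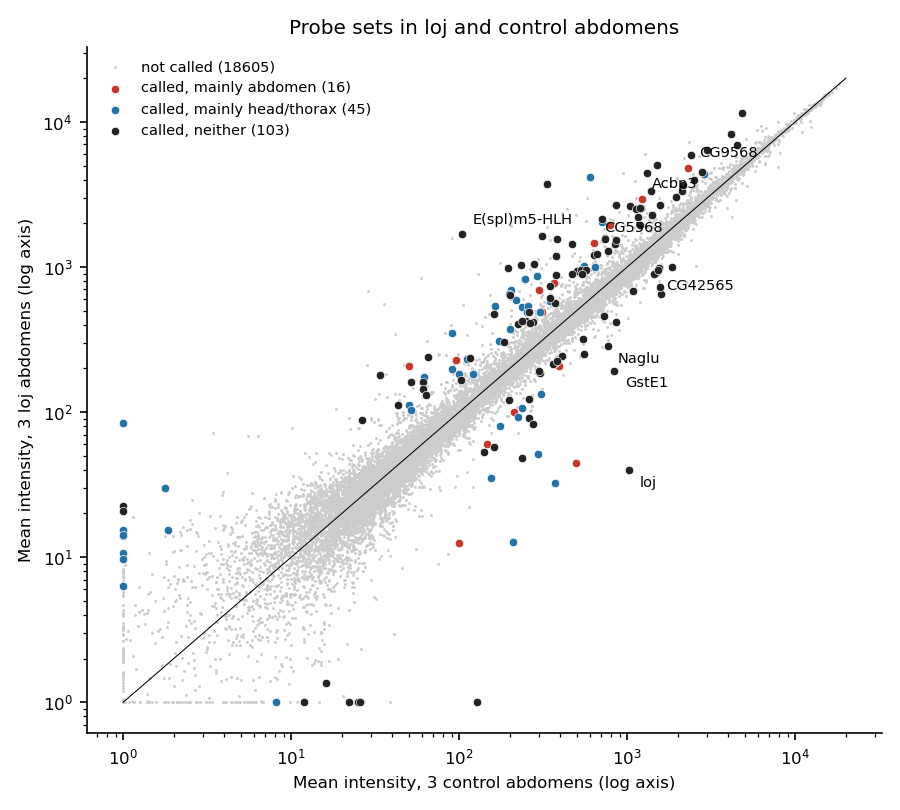
Mean intensity of each probe set in 3 control abdomens (horizontal, log axis) and 3 *loj* abdomens (vertical, log axis), with values under 1 set to 1 and the line of equality drawn. Grey points are the 18605 probe sets not called, and the 164 called are coloured by class, 16 mainly abdomen, 45 mainly head/thorax and 103 neither. *loj* lies farthest below the line among the labelled genes.

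The 7 down regulated mainly abdomen probe sets comprise 5 named genes and 2 probe sets without a name. The largest decrease among them belonged to the unnamed probe set 1629126_at, which read 590.3, 355 and 547 in the controls and 43.1, 41.1 and 50.3 in *loj* mutants and was at least 5.59-fold lower (log2 change -3.44 ± 0.21 (SE), limma adjusted p = 0.00629). It is named because its values were seen. *CG42565* read 1581, 1376 and 1483 in the controls and 921, 912 and 899 in *loj* mutants. Its *loj* arrays were close to each other and all below the lowest control (log2 change -0.70 ± 0.063 (SE), limma adjusted p = 0.0166). *Jon66Ci*, which encodes a serine protease of the Jonah family of digestive enzymes, read 423, 348 and 337 in the controls and 226, 204 and 224 in *loj* mutants, again without overlap (log2 change -0.75 ± 0.11 (SE), limma adjusted p = 0.0465). *CG12880* was 206, 206 and 220.1 in the controls and 99.7, 109 and 91.6 in *loj* mutants (log2 change -1.07 ± 0.10 (SE), limma adjusted p = 0.0166). *CG30403*, annotated by the study as DNA binding, was 135, 142 and 164 in the controls and 52.7, 54.2 and 74.7 in *loj* mutants, and *CG17470* was 82.5, 114 and 105 in the controls and 16.5, 14.7 and 6.49 in *loj* mutants. In *loj* mutants neither gene was above background, which gives decreases of at least 1.69-fold and 1.14-fold (adjusted p = 0.0423 and 0.0367), and *CG17470* was above background on only 1 of 3 control arrays. The second unnamed probe set, 1624224_at, read 419, 394 and 365 in the controls and 214, 225 and 187 in *loj* mutants (log2 change -0.91).

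The 9 up regulated mainly abdomen genes increased by 1.57- to 2.46-fold, apart from *CG42857*, whose controls were not above background and which increased at least 1.91-fold. *Acbp3* encodes a member of the acyl-CoA binding protein family, which carries activated fatty acids in the cytosol. Its probe set read 1440.3, 1051 and 1164 in the controls and 2853, 2891 and 3097 in *loj* mutants, 2.44-fold higher in *loj* mutants (log2 change 1.29 ± 0.12 (SE), limma adjusted p = 0.0174). In head/thorax none of 6 arrays was above background for *Acbp3*. *CG5568*, annotated by the study as a 4-coumarate-CoA ligase, read 604, 649 and 648 in the controls and 1556, 1491 and 1374 in *loj* mutants, and was the mainly abdomen gene with the lowest adjusted p (log2 change 1.22 ± 0.066 (SE), limma adjusted p = 0.00436). It too was at background on every head/thorax array. *MFS12*, a transporter of the major facilitator superfamily, rose from 299.9 ± 38.8 (SD, n = 3) to 694 ± 40.6 (log2 change 1.22, adjusted p = 0.0144). *pon*, whose product partner of numb helps to place the cell fate determinant Numb in dividing cells, read 326, 328 and 285 in the controls and 534, 498 and 446 in *loj* mutants and changed least (log2 change 0.65 ± 0.10 (SE), limma adjusted p = 0.0497). The other 5 genes have no function that is given here. *CG9568* read 2539, 2337 and 2039 in the controls and 5103, 5076 and 4343 in *loj* mutants, and *CG33258* had 844, 699 and 829.7 in the controls and 1581, 2091 and 2199 in *loj* mutants. Its neighbour on 3L, *CG13075*, rose from 95.4 ± 14.6 (SD, n = 3) to 227 ± 35.7, and the log2 changes of the 2 genes were 1.30 and 1.25. Only 1 of the 3 control arrays was above background for *CG13075*, so the size of its increase is less firm. *CG12517* read 427, 298 and 367 in the controls and 731, 732 and 872 in *loj* mutants (log2 change 1.11). Every one of the 9 had its 3 *loj* arrays above its 3 control arrays.

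**Figure D2:**
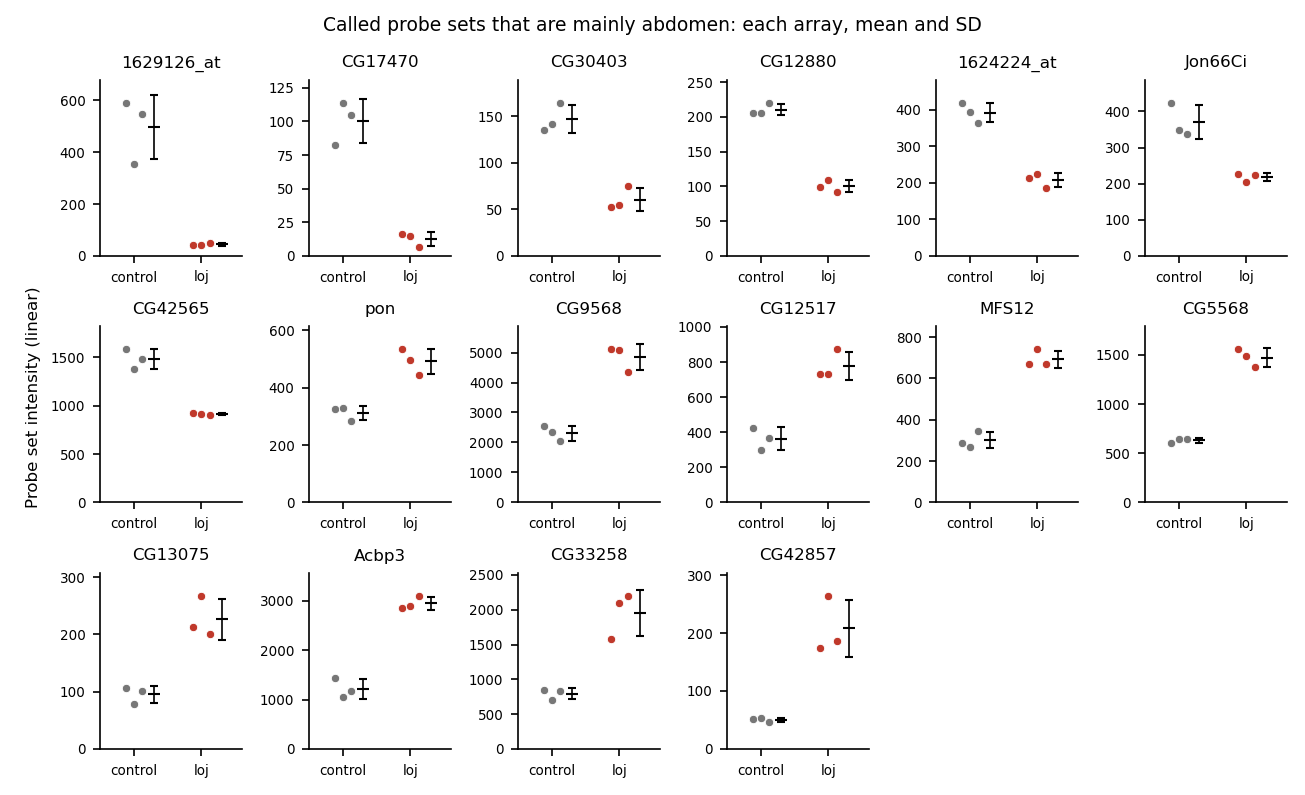
Intensity on each array (linear axis from 0) of the 16 called mainly abdomen probe sets, control abdomens in grey and *loj* abdomens in red, with the mean and SD of 3 beside the points. The first 7 panels are down regulated and the last 9 up regulated, and in no panel do the groups overlap.

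Among the called genes outside the immune lists, 112 besides *loj* have a single name, 74 up and 38 down regulated. Immune genes were left out by probe set, so *Idgf3* and *AnxB9* remain here by 1 probe set each, while another called probe set of each is in the study's immune tables. Of the 112 genes, 44 were placed in functional groups that were formed after the calls were seen and so receive no test. Detoxification enzymes count 4 genes up and 2 down, lipid, sugar and lysosomal metabolism 5 up and 2 down, membrane transport 5 up and 1 down, and junctions, adhesion and extracellular matrix 5 up and 1 down. Signalling counts 3 up and 4 down, transcription, chromatin, RNA and translation 2 up and 7 down, and proteases 0 up and 3 down. The other 68 genes, 50 up and 18 down regulated, were placed in none of these groups.

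Several of the strongest decreases were in enzymes. *GstE1*, a glutathione S-transferase that conjugates toxic compounds and lipid peroxidation products, read 901, 765 and 845 in the controls and 169, 208 and 202 in *loj* mutants, with both groups well above background (4.35-fold lower; log2 change -2.12 ± 0.11 (SE), limma adjusted p = 0.00391). *Naglu*, the lysosomal alpha-N-acetylglucosaminidase that degrades heparan sulfate, read 844, 737 and 712 in the controls and 292, 286 and 275 in *loj* mutants (2.68-fold lower; log2 change -1.42 ± 0.08 (SE), limma adjusted p = 0.00436). *UGP*, which makes UDP-glucose for glycogen and glycoprotein synthesis, read 324, 253 and 308 in the controls and 48.1, 60.1 and 45.8 in *loj* mutants and was at least 3.38-fold lower. The decrease of each of these 3 genes was called whichever of the 6 arrays was left out. *CG8768*, for which the study's annotation gives carbohydrate metabolism, read 192, 211 and 223 in the controls and 11.9, 10.7 and 15.8 in *loj* mutants, at least 2.39-fold lower. *teq*, the serine protease Tequila with chitin-binding domains, read 467, 304 and 346 in the controls and 33.1, 42.1 and 22.6 in *loj* mutants, at least 4.21-fold lower (adjusted p = 0.0144). The predicted protease gene *CG31205* was also lower (at least 1.74-fold, adjusted p = 0.0318), with 2 of 3 control arrays above background, and lies next to *Oamb* on 3R. *UGP*, *CG8768*, *teq* and *CG31205* are mainly head/thorax by class, with control levels lower in abdomen. Among others named below, so are *Med*, *CG30026*, *Idgf3*, *CG1208*, *Cyp12a5*, *Cyp9c1*, *stv* and the called probe set of *IP3K2*.

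Down regulated genes of signalling, transport and cell surfaces included *Oamb*, *Cbl* and *Med*. *Oatp58Db*, an organic anion transporter expressed in Malpighian tubules, read 141, 132 and 145 in the controls and 62.2, 51.4 and 44.2 in *loj* mutants, at least 1.6-fold lower. It is 1 of the 8 tubule markers, whose sum without *Uro* was lower in *loj* mutants. *Oamb* encodes the octopamine receptor that ovulation requires. It read 418, 357 and 368 in the controls and 221, 225 and 226 in *loj* mutants, all 3 *loj* arrays below the lowest control (log2 change -0.76 ± 0.079 (SE), limma adjusted p = 0.0214), and the lower follicle cell marker sum given above moved with it. The part of that sum in the result was not tested. Both probe sets of *Rnf11*, a RING finger protein gene, fell, 258, 194 and 253 in the controls and 53.1, 50.2 and 42.2 in *loj* mutants for the brighter and 175, 153 and 196 in the controls and 93.2, 77.8 and 70.9 in *loj* mutants for the dimmer. *Cbl*, the ubiquitin ligase that attenuates EGF receptor signalling, read 1787, 2117 and 1669 in the controls and 1098, 1023 and 871 in *loj* mutants (log2 change -0.90, adjusted p = 0.0438). A second *Cbl* probe set, near background, had a log2 change of 0.05 (adjusted p = 0.932), so the decrease was measured by 1 of 2 probe sets. *Med*, the co-Smad of BMP signalling, read 210, 194 and 269 in the controls and 83, 88 and 107 in *loj* mutants (log2 change -1.27, adjusted p = 0.0382). Of genes with no function given here, *CG11370* read 1619, 1581 and 1575 in the controls and 677, 524 and 765 in *loj* mutants and *CG14406* 297, 229 and 252 in the controls and 103, 93.1 and 78.5 in *loj* mutants (log2 change -1.30 and -1.51, adjusted p = 0.0217 and 0.0185), and *CG31810*, not above background on any *loj* array, was at least 1.85-fold lower. *sosie*, a transmembrane protein gene known from the follicle epithelium, read 335, 198 and 287 in the controls and 80.2, 92.3 and 75.6 in *loj* mutants (log2 change -1.70, adjusted p = 0.0337). *dgo*, a planar cell polarity gene, and *trn*, which encodes a cell surface protein with leucine-rich repeats, had log2 changes of -0.71 and -0.70.

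The group of transcription, chromatin, RNA and translation, a broad one formed after the calls were seen, held 7 down and 2 up regulated genes. *vir*, a subunit of the RNA methylation complex that acts in sex determination, read 409, 374 and 444 in the controls and 245, 240.1 and 239.9 in *loj* mutants (log2 change -0.75 ± 0.079 (SE), limma adjusted p = 0.0214). *msl-3*, a subunit of the MSL complex that raises X-linked transcription in males, read 334, 347 and 399 in the controls and 208, 219.6 and 219 in *loj* mutants for the called probe set (log2 change -0.74, adjusted p = 0.027). Its second probe set had a log2 change of -0.33 (adjusted p = 0.147). Of the other MSL genes, examined after this value was seen, none was called, with log2 changes of -0.52 for *msl-1*, -0.16 for *mle*, -0.091 for *mof* and -0.062 for *msl-2* (adjusted p = 0.121 to 0.871). *D19A*, a zinc finger gene, read 824, 1004 and 755 in the controls and 438, 412 and 400 in *loj* mutants, and *Polr1E*, an RNA polymerase I subunit gene, 1629.5, 1589 and 1447 in the controls and 1029, 998 and 914 in *loj* mutants. *XRCC1*, whose product acts in the repair of DNA strand breaks, read 228, 264 and 287 in the controls and 127, 125 and 117 in *loj* mutants, and the mitochondrial ribosomal protein gene *mRpL24* 1444, 1735 and 1399 in the controls and 941, 992 and 907 in *loj* mutants. Log2 fold changes of these 4 genes were -1.04, -0.67, -1.07 and -0.68 (adjusted p = 0.0223, 0.0223, 0.02 and 0.044), and none of their groups overlapped.

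The largest increase among probe sets above background on all 3 *loj* arrays, immune genes apart, belonged to *E(spl)m5-HLH*, a basic helix-loop-helix repressor of the Enhancer of split complex, whose genes are targets of Notch. It read 106, 104 and 103 in the controls and 1339.6, 1715 and 2009 in *loj* mutants (16-fold; log2 change 4.00 ± 0.15 (SE), limma adjusted p = 0.00134), with the controls on the border of background (above it on 2 of 3 arrays). *CG34040*, a gene of unknown function, rose by both of its probe sets, 279.9, 306 and 344 in the controls and 1180.5, 1976 and 1721 in *loj* mutants for one and 179, 197 and 209.8 in the controls and 744, 1231 and 989 in *loj* mutants for the other. *CG4363*, its neighbour on 2R, rose too (log2 change 1.10, adjusted p = 0.0144). Further large increases were found for *CG13311* (291, 170.4 and 240.3 in the controls and 932, 1105 and 1077 in *loj* mutants), for *hdly* (267, 230.5 and 338 in the controls and 1043, 945 and 1149 in *loj* mutants) and for *CG15043* (1318, 1094 and 1511 in the controls and 3869.8, 5733 and 3628 in *loj* mutants), none of which has a function given here. *CG13321* read 1354, 1397 and 1415 in the controls and 3303, 3535 and 3125 in *loj* mutants (log2 change 1.26 ± 0.062 (SE), limma adjusted p = 0.00391) and was called whichever array was left out. A probe set at which sources differ, 1635486_at, rose at least 1.67-fold (adjusted p = 0.00691). The array annotation names it *CG33468*, and the study *CG33486*, which it describes as an asparagine synthetase. In the gene annotation used here *CG33486* is *AsnS*, which has another probe set, so 1635486_at is not read as an asparagine synthetase. The *AsnS* probe set had 1226, 1242 and 1014 in the controls and 881, 818 and 814 in *loj* mutants (log2 change -0.47, adjusted p = 0.0981), in the other direction. *CG30026* also rose (log2 change 1.71). *CG13325*, *CG31955* and *CG42262*, whose controls were not above background, rose at least 2.22-fold, 1.49-fold and 1.04-fold, so their order among the increases is not known. Of the other genes that the study discusses for the abdomen, the probe set of *CG4415* (*gNacalpha*), for a subunit of the nascent polypeptide-associated complex, read 28.5, 16.7 and 20.8 in the controls and 143, 46.7 and 82.7 in *loj* mutants (adjusted p = 0.132), above background on 1 of 6 arrays, and that of *CG33093* was not above background on any array.

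Genes of epithelial junctions, adhesion and extracellular matrix counted 5 up and 1 down regulated. *mesh* and *Ssk* encode membrane proteins of the smooth septate junction, which seals the epithelia of the midgut and the Malpighian tubules. *mesh* read 772, 672 and 768 in the controls and 1597, 1763 and 1359 in *loj* mutants (log2 change 1.09 ± 0.11 (SE), limma adjusted p = 0.0214), and *Ssk* 1684, 1340.3 and 1671 in the controls and 2785, 2783 and 2451 in *loj* mutants (log2 change 0.78 ± 0.11 (SE), limma adjusted p = 0.0465). The third known component, the tetraspanin gene *Tsp2A*, read 406, 329.8 and 482 in the controls and 755, 785 and 723 in *loj* mutants, without overlap and short of the threshold (log2 change 0.91 ± 0.14 (SE), limma adjusted p = 0.057). A second, dim *mesh* probe set had a log2 change of -0.12 (adjusted p = 0.881). The 3 genes were brought together after their values were seen. *Itgbn*, the integrin beta subunit of the midgut and of phagocytes, read 274, 237 and 273 in the controls and 438, 505 and 516 in *loj* mutants (log2 change 0.90, adjusted p = 0.022), and *Mur29B*, a mucin-related gene, 904, 768 and 851 in the controls and 1282, 1588 and 1457 in *loj* mutants (log2 change 0.78, adjusted p = 0.0381). The summed midgut markers overlapped between the groups, 45522 to 50875 in the controls and 49072 to 52557 in *loj* mutants. The hemocyte sum was higher, and the tubule sum was higher with *Uro* and lower without it, as given above. The part of these cells in the result was not tested. *Idgf3*, an imaginal disc growth factor related to chitinases, read 674, 609 and 848 in the controls and 2119.8, 2013 and 2022 in *loj* mutants (log2 change 1.54, adjusted p = 0.0144). The transporter genes *Oatp33Eb*, for organic anions, *Zip71B*, for zinc, and *Abca3*, of the ABC family, had log2 changes of 0.73, 0.70 and 0.81 (adjusted p = 0.0276, 0.0423 and 0.0423).

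Genes of fatty acid use that were called were up regulated. Besides *Acbp3*, the acyl-CoA synthetase gene *pdgy* read 2556, 2526 and 2418 in the controls and 3873, 4288 and 3804 in *loj* mutants (log2 change 0.67 ± 0.066 (SE), limma adjusted p = 0.0185) and *CG4594*, a predicted enoyl-CoA isomerase of fatty acid oxidation, 244, 239.8 and 261 in the controls and 397, 453 and 428 in *loj* mutants (log2 change 0.78 ± 0.075 (SE), limma adjusted p = 0.0177). The predicted sugar transporter gene *CG1208* read 203, 207 and 192 in the controls and 387, 411 and 329.8 in *loj* mutants (log2 change 0.90, adjusted p = 0.0223). *ImpL2*, which binds insulin-like peptides and limits insulin signalling, read 1294, 1219 and 883 in the controls and 2359, 2479 and 2741 in *loj* mutants (log2 change 1.17 ± 0.16 (SE), limma adjusted p = 0.0397), with the lowest *loj* array well above the highest control. *CG5493*, a predicted cysteine dioxygenase, read below 1 on all control arrays and 139.6, 83.6 and 28.4 in *loj* mutants, above background on 2 of those 3. No fold is given for it, since its controls were at the floor and 1 of the 3 *loj* arrays was at background.

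Of cytochromes P450, *Cyp12a5* read 270.3, 239 and 254 in the controls and 442, 508 and 525 in *loj* mutants (log2 change 0.95, adjusted p = 0.0175). The clustered genes *Cyp4p2* and *Cyp4p3*, not above background in controls, rose at least 1.21-fold and 1.5-fold (adjusted p = 0.0423 and 0.0477). *Cyp9c1* fell, with 319, 268 and 333 in the controls and 136, 137 and 129 in *loj* mutants (log2 change -1.19, adjusted p = 0.0144). *GstD9* rose from 1402 ± 104 (SD, n = 3) to 2269 ± 135 (log2 change 0.70) while *GstE1* fell. *GstD5*, with controls not above background and *loj* arrays spread over 187, 985 and 507, did not pass (adjusted p = 0.0651). Among stress and signalling genes, the co-chaperone gene *stv* read 263, 237 and 272 in the controls and 490.2, 542 and 583 in *loj* mutants (log2 change 1.06 ± 0.091 (SE), limma adjusted p = 0.0144) and *Xrp1*, a transcription factor gene of the response to DNA damage and ribosomal stress, 1375, 1103 and 1162 in the controls and 2099.7, 2709 and 2778 in *loj* mutants (log2 change 1.05, adjusted p = 0.0384). *ksr*, a scaffold of the Ras pathway, and *IP3K2*, an inositol trisphosphate kinase, had log2 changes of 0.93 and 0.74, the second by 1 of its 2 probe sets. *Arc1*, a synaptic gene whose product forms virus-like capsids, rose by both probe sets (log2 change 1.30 and 0.99, adjusted p = 0.0144 and 0.0166), and its neighbour *Arc2* had 0.99 (adjusted p = 0.0627).

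**Figure D3:**
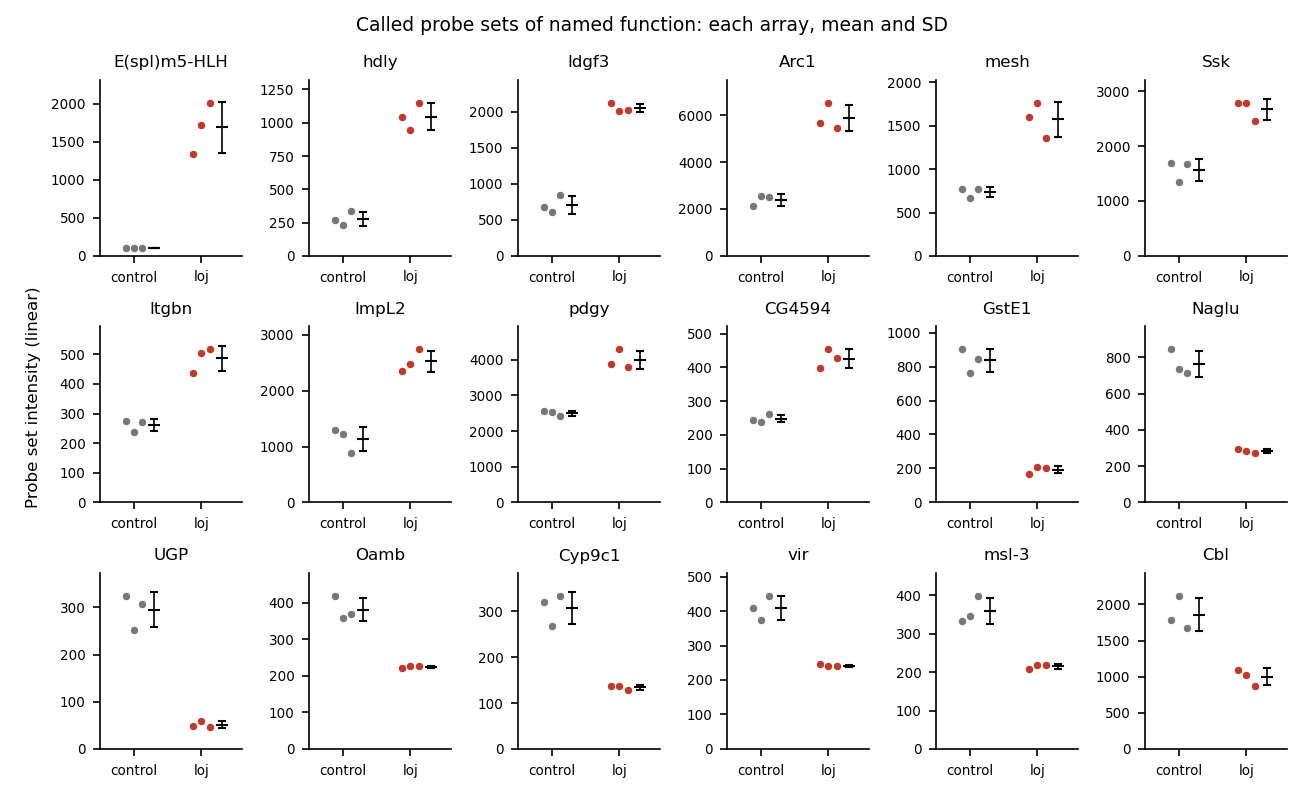
Intensity on each array (linear axis from 0) of 18 called probe sets of named function, control abdomens in grey and *loj* abdomens in red, with the mean and SD of 3 beside the points. The first 10 panels are up regulated and the last 8 down regulated, and the groups overlap in none.

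Lists of genes with a known role were then read as a whole, each gene by its brightest probe set. Over all 12026 genes 1.1% were called, 0.782% up and 0.316% down regulated, and the median log2 change was -0.032. Of the 7335 genes above background on all 3 arrays of a group 1.61% were called, 1.16% up and 0.45% down regulated, and the *loj* arrays lay wholly above the controls for 12.4% and wholly below for 15.3%. No list apart from the immune genes held more than 3 called genes in 1 direction.

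The eggshell list, of genes that follicle cells express to build the vitelline membrane and chorion, had the lowest median of the 26 lists. By their brightest probe sets none of its 22 genes was called, 21 were above background, and of these 17 had negative and 4 positive changes (median log2 change -0.55, against -0.04 for all genes above background). The *loj* arrays lay wholly below the controls for 8 of the 21 and wholly above for none. *dec* (*dec-1*), which encodes eggshell matrix proteins, read 2714, 2001 and 2002 in the controls and 475, 691 and 1207 in *loj* mutants (log2 change -1.59 ± 0.35 (SE), limma adjusted p = 0.116). The vitelline membrane gene *Vm32E* read 3069, 2262 and 2384 in the controls and 396, 916 and 1737 in *loj* mutants (log2 change -1.57 ± 0.52 (SE), limma adjusted p = 0.263). Both were lower on each *loj* array than on any control array, with a wide spread among the *loj* arrays. *Cad99C*, a cadherin of follicle cell microvilli, had the lowest adjusted p of the list (0.0364) at a log2 change of -0.55, under the 1.5-fold threshold. The chorion gene *Cp15* read 7239.6, 8083 and 8466 in the controls and 3670.3, 7783 and 3192 in *loj* mutants, and the groups overlapped (log2 change -0.81, adjusted p = 0.372). The late chorion genes *Cp16*, *Cp18* and *Cp19* had positive log2 changes of 0.83, 0.72 and 0.97 that did not pass (adjusted p = 0.752, 0.818 and 0.699). Relative to the control mean, the list median was 0.29, -0.15 and -0.10 in control and -0.40, -0.46 and -0.56 in *loj* replicates 1 to 3. All 5 markers of follicle cells are members of this list, and the part of their lower sum in these values was not tested.

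Of the other reproductive genes *Oamb* alone was called. Of 21 germline and oocyte patterning genes none was called (median log2 change -0.12), and of 4 yolk genes none (-0.083). Of 15 genes of octopamine and ovulation *Oamb* was called, and the matrix metalloproteinase gene *Mmp1*, whose relative *Mmp2* opens the follicle at ovulation, had 0.70 (adjusted p = 0.0572). The median log2 change of the 9 above background in that list was 0.32, opposite in sign to *Oamb*. Of these 9, 5 had all *loj* arrays above the controls and 2 all below. Of 8 spermatheca genes none was called (median log2 change of 7 above background 0.37), and 5 had all *loj* arrays above the controls. Of 58 genes of seminal fluid and sperm none was called and 11 were above background.

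Gut and detoxification lists had positive medians. Of 54 digestive enzyme genes *Jon66Ci* alone was called, and the median of 50 above background was 0.072. Of 81 cytochrome P450 genes 3 were up and 1 down regulated (median of 52 above background 0.10), of 34 glutathione S-transferases 1 and 1 (median of 26 0.19), and of 35 UDP-glycosyltransferases none (median of 19 0.16). Of 44 genes related to ecdysteroid kinases, enzymes known from silkworms to phosphorylate ecdysteroids, *CG6830* and *CG13659*, the second in the study's tables of immune-regulated genes, were up regulated (log2 change 0.92 and 1.53, adjusted p = 0.0231 and 0.0294). In this family the median of 31 genes above background was 0.35, and 14 had all *loj* arrays above the controls and 2 all below. Of 32 tetraspanin genes *Tsp42Ed*, also in those tables, was called, and 10 of 22 above background had all *loj* arrays above the controls and none below (median 0.27). Of 150 genes of chitin, peritrophic matrix and cuticle *Idgf3* and *Mur29B* were called, and 14 of 41 above background had all *loj* arrays above and none below. *Cht4*, a chitinase gene, had the largest change of that list and did not pass (2.84, adjusted p = 0.0609).

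Of 25 lipid genes 3 were called, all up regulated (*Acbp3*, *CG4594* and *pdgy*), and the median of 24 above background was 0.019. *Acbp6* had the largest value among the uncalled (log2 change 2.50, adjusted p = 0.0803), and the fatty acid synthase gene *FASN1* had -0.52 (adjusted p = 0.165). Of 27 genes of sugar use *CG1208* was up and *UGP* down regulated, and *Ldh*, lactate dehydrogenase, had 1.41 (adjusted p = 0.0584). Of 32 metal handling genes *Zip71B* and the iron carrier gene *Tsf1*, which belongs to the study's immune-regulated genes, were up regulated (log2 change 0.70 and 0.62). Of 17 p24 and coat genes only *loj* was called (median of 16 above background -0.091). Of 22 genes of ER folding and the unfolded protein response none was called, and the 21 above background had log2 changes from -0.28 to 0.24 around a median of -0.0064. Of 20 heat shock and chaperone genes *stv* and the immune-regulated *Fst* were up regulated, and the median of 14 above background was -0.017. Of the other lists, 1 of 27 serpins (*Spn28Dc*) and 1 of 20 genes of dopamine, melanin and tyrosine (*Ddc*) were up regulated, as were 2 of 11 insulin genes (*ImpL2* and *Thor*), and *Spn28Dc*, *Ddc* and *Thor* are in the study's immune tables. Serpins, inhibitors of serine proteases, had the highest median of the 26 lists (0.53). All 10 serpins above background had positive values and 9 had all *loj* arrays above the controls, and *Spn42Da*, also in the immune tables, was up regulated by 1 probe set that is not its brightest (log2 change 0.71, adjusted p = 0.0397). The probe sets called up regulated for *pip* and for *Obp19a* read at most 11.7 and 18.8 on any abdomen array, below background, so no fold is given for them. *pip* belongs to the eggshell list, and its called probe set is not its brightest.

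**Figure D4:**
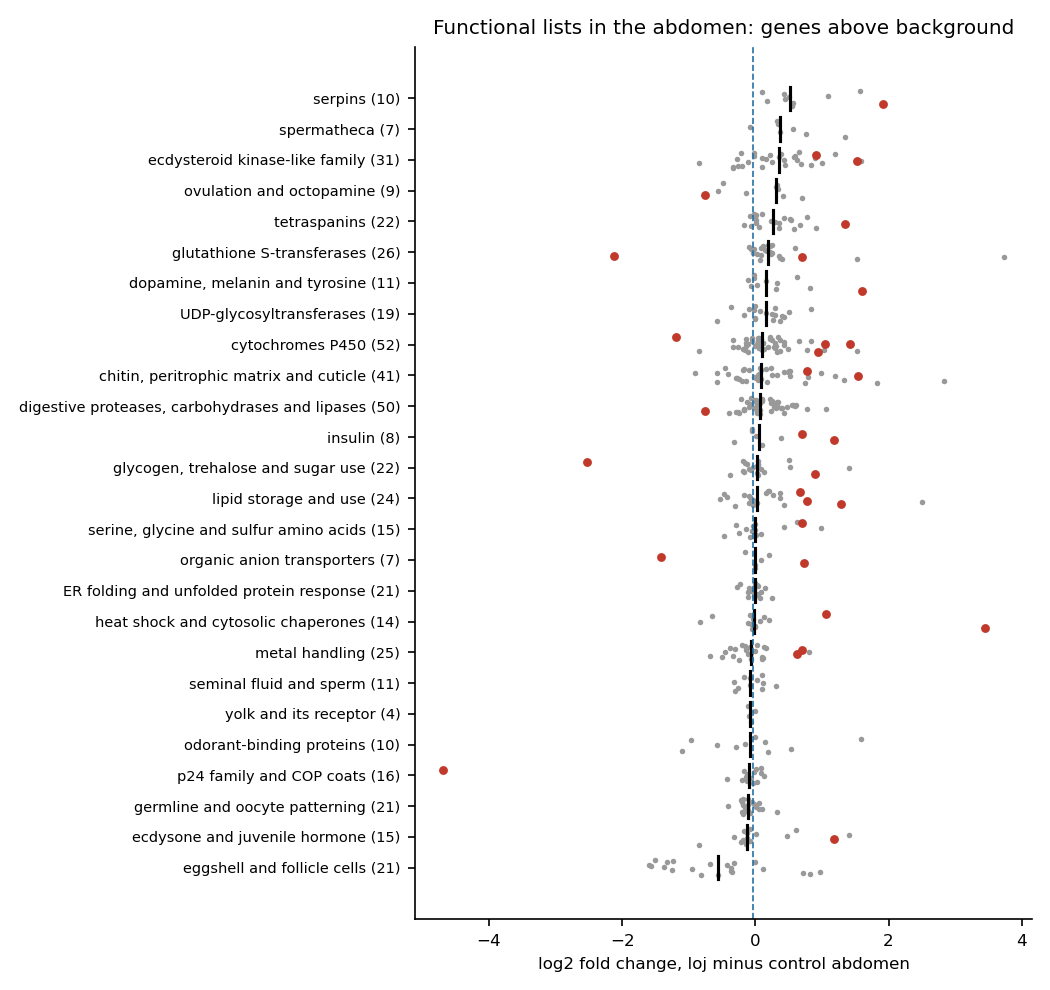
Log2 fold change of *loj* over control abdomen for each gene above background (points, horizontal axis) in 26 functional lists (rows, with the number of genes above background), called genes in red, the list median as a black bar and the median of all 7335 genes above background as a dashed line. The eggshell list has the lowest median and serpins the highest, and most lists hold few or no called genes.

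Most abdomen calls had the same sign in head/thorax as in abdomen, 142 of 164. In head/thorax 1.86% of all probe sets were called, 1.09% up and 0.778% down regulated, and 56 of the 164 were called there in the same direction and 2 in the opposite direction. The change differed between tissues for 28 of the 164 by the interaction of genotype and tissue in limma (adjusted p under 0.05), against 0.506% of all probe sets. The interaction uses the same abdomen arrays as the calls. With control abdomen replicates 1, 2 and 3 left out in turn it was 9, 14 and 10 probe sets, and with *loj* abdomen replicates 1, 2 and 3 left out 12, 9 and 9. Whether an abdomen and a head/thorax sample came from the same females is not stated. With samples of the same genotype and number taken as a block 18 of the 28 passed, and of the genes named here *CG31810*, *Cyp12a5* and *CG12517* did not. Of the 28, 3 are mainly abdomen, 16 mainly head/thorax and 9 neither. *CG42565* was the mainly abdomen gene whose direction turned. It fell in abdomen, as given above, and rose in head/thorax from 94.7 ± 23.2 (SD, n = 3) to 274 ± 30.9 (log2 change 1.55, adjusted p = 0.0172; difference 2.25, adjusted p = 4.92e-04), with 3 of the 6 head/thorax arrays above background. The unnamed probe set 1629126_at fell in abdomen and was at background in head/thorax (difference 3.28, adjusted p = 4.14e-04), as was *CG12517*, which rose in abdomen (difference -1.41, adjusted p = 0.0212, 0.0943 with the block), so the head/thorax change of both was not measured. *Naglu* and *sosie* fell more in abdomen than in head/thorax, where their log2 changes were -0.40 and -0.011 (difference 1.03 and 1.69, adjusted p = 0.00454 and 0.00571). *Mur29B* rose in abdomen and had -0.39 in head/thorax (difference -1.17, adjusted p = 0.00702). *E(spl)m5-HLH* had 5.77 in head/thorax (difference 1.77, adjusted p = 0.00312). Its controls were at background there and on the border of it in abdomen, so the size of the difference is not known. For most of the other mainly abdomen genes too the head/thorax intensity was at background, so the tissues could not be compared. *mesh*, *Ssk* and *Itgbn* had log2 changes of 1.26, 0.66 and 1.19 in head/thorax.

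**Figure D5:**
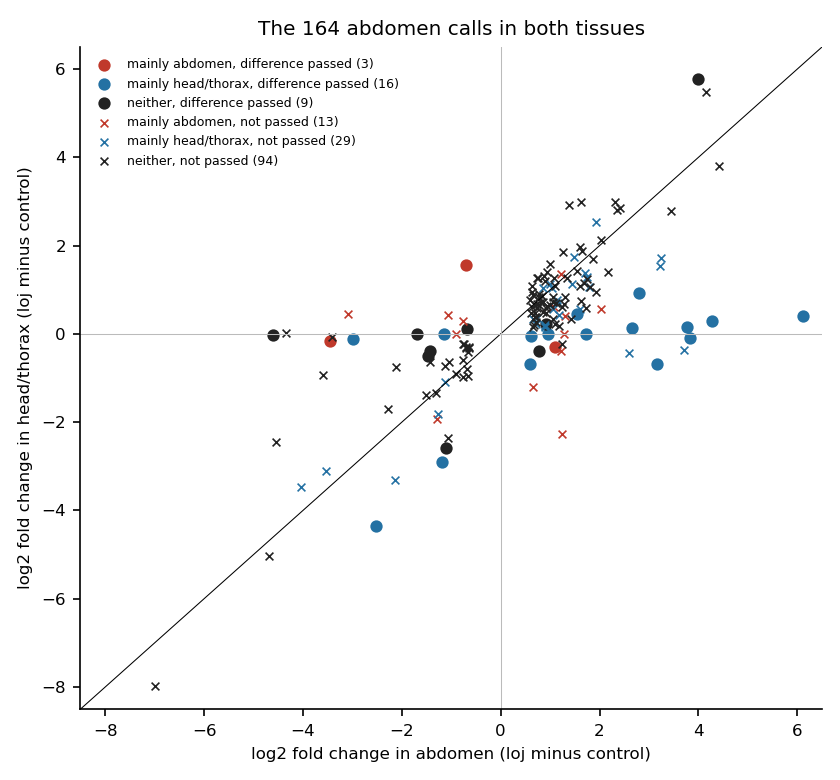
Log2 fold change of *loj* over control in abdomen (horizontal) and in head/thorax (vertical) for the 164 probe sets called in abdomen, coloured by class, with the line of equality. Filled circles are the 28 whose change differed between the tissues and crosses the other 136; 142 of the points have the same sign in both tissues.

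The called genes were spread over the chromosome arms in shares of 0.639% of the measured genes on X to 1.54% on chromosome 4, where 1 of 65 was called, with 1.13% on 2L, 1.43% on 2R, 1.15% on 3L and 1.07% on 3R. The *loj* gene lies on 3L. Of 86 measured genes within 50 genes of it on either side 2 were called, *CG5568* and *D19A*, and of 349 within 200 genes 5 were called, *Acbp3*, *CG15012* and *ImpL2* as well. The *loj* females carry both mutant chromosomes and each control only 1, so for these genes the surrounding chromosome and the loss of *loj* cannot be told apart. Of 132 called genes 23 had another called gene within 5 genes, in 13 neighbouring pairs, 11 of them with the same direction. The share of all genes with a called gene that near was not computed, so no clustering is read from this count. Of the 132 called genes 94 were up regulated, so pairs with the same direction are common among them wherever they lie. These windows were chosen after the calls were seen.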

How the data were processed

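Total RNA was hybridised to Affymetrix Drosophila Genome 2.0 arrays. Per the paper's methods the authors computed expression with dChip (perfect match and mismatch models) and GCOS, version 1.2 in the submitters' processing notes. The deposited table holds 1 intensity per probe set and array on a linear scale. The labels and methods do not say which of these programs produced the table or what scaling between arrays was used. Of the abdomen values 2.30% are negative, so a low value has little meaning on a log scale and a floor was set. Array number limits the precision.

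A floor of 1 was applied to the intensities before the log2 transformation. The 3 *loj* abdomen arrays were compared with the 3 control abdomen arrays in limma 3.58.1 (R 4.3.3; empirical Bayes with an intensity trend, Benjamini-Hochberg over 18769 probe sets), and the difference between tissues by an interaction over 12 arrays. The step was tested on simulated data with independent noise, in which changes were added only to brighter probe sets. That test does not cover values near the floor or errors shared by a whole array. p-values measure the spread between RNA extractions. Where a group was not above background on any array, "at least N-fold" compares the brighter group's mean with, per array, the higher of the background level and the probe set's own value. Gene names came from the platform annotation (13646 probe sets with 1 symbol, 402 with several), 47 from the study's supplementary tables, and 4674 had none. Lists used the brightest probe set of a gene.

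Named are *loj*, the 15 genes that rose and the 15 that fell most among called, non-immune, single-name probe sets above background, up to 5 called genes of each list, every down regulated and up to 12 up regulated mainly abdomen genes, and genes the study discusses. Other genes named were chosen after their values were seen. Members and lists were chosen with earlier results of these data known. *CG14207* was not analysed here. Alternatives covered scaling, floor, offset, filters, test, thresholds, class ratio, replicate block and omission of each array.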

Additional observations from a re-analysis of the deposited data

Results flagged for a closer look

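Of the 28 abdomen calls whose change differed between head/thorax and abdomen (limma interaction, adjusted p under 0.05), the 14 named by the rule and 4 without a gene name that were above background are given here. The difference is given as the head/thorax log2 change minus the abdomen log2 change. Among down regulated genes it was -1.71 for *Cyp9c1*, which fell further in head/thorax, and 1.69 for *sosie* and 1.03 for *Naglu*, which fell further in abdomen. It was -1.83 for *UGP*, whose *loj* arrays were at background in both tissues, so that both decreases are lower bounds without an order. For *CG31810* it was 0.99, with no head/thorax array above background and so no measured change there. For *CG42565*, down in abdomen and up in head/thorax, it was 2.25.

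Among up regulated genes the difference was 1.77 for *E(spl)m5-HLH*. Its controls were at background in head/thorax and on the border of it in abdomen, so the 2 folds have no firm order. The difference was negative for *Idgf3* (-1.08), *Cyp12a5* (-0.96), *Mur29B* (-1.17) and *Tsf1* (-0.66). *Idgf3* rose less in head/thorax (log2 change 0.46), whereas *Cyp12a5*, *Mur29B* and *Tsf1* had no increase there (-0.0072, -0.39 and -0.039). The other called *Idgf3* probe set had a difference of -0.39 that did not pass (limma interaction, adjusted p = 0.754). For *CG12517* it was -1.41, again with no head/thorax array above background. For *CG5493* (-5.70) and *Obp19a* (-3.85) the abdomen controls lay at or below the floor, so the size of the difference depends on the floor. Of probe sets without a gene name and with the brighter abdomen group above background, 1629126_at had 3.28, 1624819_s_at -1.27, 1639729_s_at -0.71 and 1624543_s_at -1.73.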

How the results depend on the processing

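The main counts were 116 up and 48 down regulated probe sets, of which 9 and 7 mainly abdomen, 28 calls that differed between tissues and 68 named probe sets called. Median centring gave 190 up regulated. A floor of 32 gave 57 up and 29 down, 5 mainly abdomen up and 40 named. Testing only probe sets above background in a group gave 250 and 74 (mainly abdomen 21 and 19), and those above the median intensity 240 up (20 and 17), with fewer probe sets tested in both. Without the intensity trend there were 34 and 21 (3 and 2, 29 named), and with all 12 arrays in 1 fit 306 and 113 (4 mainly abdomen up). The methods' Cyber-T style test gave 396 and 130 (36 and 29) at an unadjusted p under 0.001, sharing 160 of the 164 calls. An unadjusted p under 0.001 in limma gave 14 mainly abdomen up, and an adjusted p under 0.1 gave 247 and 93 (19 and 13). With the class from the *loj* arrays 3 mainly abdomen probe sets were down, with the class after median centring 15 up and 12 down, with a class ratio of 2 18 and 15, and with a ratio of 8 4 down. Leaving out 1 array gave 13 to 29 up, 9 to 23 down, 1 to 3 and 1 to 2 mainly abdomen, 11 to 21 named, and 9 to 31 differing between tissues (9 to 14 without an abdomen array). The cause of these differences was not tested beyond the smaller number of arrays or probe sets. Deviations of same-numbered *loj* and control abdomens from their group means had correlations of -0.011, -0.0074 and 0.031. Those with unlike numbers had -0.043 to 0.052. These values cannot decide whether the numbers pair the samples, which no source used here states. With a replicate block 0 were up and 1 (*loj*) down, 0 and 0 mainly abdomen, 1 named and 0 differing between tissues, since only 1 call was left to differ. Of the 28 calls 18 passed the interaction with the other block, of abdomen and head/thorax samples of the same genotype and number. Quantile normalization, an offset of 32, no fold threshold, 1 probe set per gene, and calls restricted to probe sets whose brighter group was above background (an alternative chosen after seeing the data) moved none of the counts they gave by 1.5 times or more. The median log2 change of mainly abdomen probe sets was -0.12 to -0.0031 with 1 array left out.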
